A study of Mus musculus with 9 samples.

Results

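The genes described here are 10 members of the AP-1 and immediate early class: Fos, Fosb, Fosl1, Fosl2, Jun, Junb, Egr1, Egr2, Ier3 and Zfp36. They and the related lists below were chosen by name, with earlier results of these data known. The shares over all genes given beside their counts are therefore descriptive and test no excess. Every probe set assigned to exactly 1 of the 10 genes was taken. This gave 14 of the 45037 probe sets on the array and 10 of the 18193 genes that could be named. RNA came from epidermis scratched off frozen skin of 8-week-old mice on the hairless SKH1 background (5 backcross generations), 1 Affymetrix Mouse Genome array per mouse. The 5 arrays called inactivated here come from Alox12b fl/fl mice that also carried the tamoxifen-dependent Cre-ERT2 recombinase under the cytokeratin K14 promoter (genotype p/p +/Cre), and the labels call them diseased. The 4 control arrays come from Alox12b fl/fl littermates without Cre (p/p +/+). Mice of both groups received 3 intraperitoneal injections of 1 mg tamoxifen and were taken 6 days after treatment. Since Cre is carried by the inactivated mice alone, active Cre and loss of Alox12b, the epidermal 12R-lipoxygenase of barrier lipid synthesis, cannot be told apart.

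AP-1 is a dimer of basic leucine zipper proteins. Jun and Junb can pair with one another or with Fos, Fosb, Fosl1 (Fra-1) or Fosl2 (Fra-2), and the dimer binds the sequence TGANTCA. Immediate early genes such as Fos, Fosb, Jun, Egr1 and Egr2 are transcribed within minutes of a stimulus from transcription factors already present in the cell, chiefly serum response factor with its partners, and their RNA is short-lived. Ier3 encodes a small protein of stress and survival signalling, and Zfp36 (tristetraprolin) binds AU-rich stretches of messenger RNA and speeds their decay. In epidermis AP-1 proteins are known as regulators of keratinocyte differentiation, wound healing and inflammation.

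The stretches before the start sites of some members are shown first, since serum response factor binds CArG boxes (CC, then A or T only, then GG) and both a gene that rose and a gene that fell carry one. The sequences are RefSeq's for GRCm38.p6, and windows were found for 8 of the 10 genes, without Fosl1 and Egr1. In the 250 bases before the start of Zfp36 (chr7:28379229-28379478, minus strand) capitals mark, in order, the Egr-type motif GCGNGGGCG, the Ets-type motif CCGGAA and a CArG box. In that of Ier3 (chr17:35821463-35821712, plus strand) they mark a kappaB motif read on the other strand. In that of Fos (chr12:85473640-85473889, plus strand) they mark a kappaB motif on the other strand and TATAAA. For Egr2 the 30 bases around each of 2 CArG boxes are given (chr10:67537484-67537513 and chr10:67537787-67537816, plus strand), which lie inside the annotated gene (chr10:67534469-67542188) before start sites of its transcripts.
Zfp36: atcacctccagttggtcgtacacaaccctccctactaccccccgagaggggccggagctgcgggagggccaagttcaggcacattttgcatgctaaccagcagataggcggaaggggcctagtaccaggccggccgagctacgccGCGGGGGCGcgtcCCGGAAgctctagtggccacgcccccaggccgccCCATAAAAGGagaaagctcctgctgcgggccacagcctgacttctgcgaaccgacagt
Ier3: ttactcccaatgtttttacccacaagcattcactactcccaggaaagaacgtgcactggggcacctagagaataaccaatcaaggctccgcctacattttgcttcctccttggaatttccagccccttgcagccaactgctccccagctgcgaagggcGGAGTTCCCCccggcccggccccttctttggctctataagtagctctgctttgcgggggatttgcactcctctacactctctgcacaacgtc
Fos: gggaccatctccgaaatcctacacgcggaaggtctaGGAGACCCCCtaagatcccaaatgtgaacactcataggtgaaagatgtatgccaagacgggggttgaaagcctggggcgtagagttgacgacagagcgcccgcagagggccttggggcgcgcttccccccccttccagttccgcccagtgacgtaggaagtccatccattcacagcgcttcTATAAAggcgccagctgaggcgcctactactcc
Egr2, box 1: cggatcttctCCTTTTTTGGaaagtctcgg
Egr2, box 2: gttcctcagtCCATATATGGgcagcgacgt

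Motifs were searched on both strands in the 250 bases before the start in all 32851 windows of the RefSeq table, 12 of them of members (5 for Egr2). A CArG box was present in 5 of the 12 member windows, from 2 genes (Zfp36 and Egr2), and in 1.47% of all windows. Some Egr2 windows overlap and share a box. Bases further upstream were not searched and Egr1 and Fosl1 had no window. A motif not found here, such as a CArG box in Fos, can therefore lie outside the bases searched. In Zfp36 it covers bases 58 to 49 before the start. The Egr-type motif was present in 3 of the 12 member windows (Zfp36, Fosl2 and Fosb) and in 4.7% of all windows. For the Ets-type motif it was 2 of the 12 (Zfp36 and Egr2) and 12.0% of all. A kappaB motif was found in 5 of the 12 member windows (Fosl2, Fosb, Egr2, Fos and Ier3) and in 7.25% of all windows. TATAAA was found in 1 of the 12 (Fos) and in 12.4% of all. Neither TGANTCA nor the cyclic AMP element TGACGTCA was found in any member window, against 6.75% and 1.55% of all windows. None of the marked motifs overlaps another in the sequences shown, although matches of one motif overlapped in other windows of Fosl2 and Egr2. Such matches are descriptions of letters and are not evidence of binding.

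In the inactivated group 5 of the 10 genes rose (Ier3, Zfp36, Junb, Fosl1 and Fos), Egr2 fell, and Jun, Fosl2, Egr1 and Fosb did not pass (limma with Benjamini-Hochberg adjustment over all probe sets, adjusted p under 0.05). The background share over all 18193 genes was 15.5% for a rise and 18.9% for a fall, together 34.4%. Full separation of the 2 groups was seen in 6 of the 10 genes, namely the 5 called ones other than Fos and in addition Fosl2, against 31.6% of all genes. Of the 14 probe sets 7 rose and 2 fell (12.7% and 16.0% of all 45037), and 9 separated the groups (25.7% of all). The median difference of the 10 genes was 1.00 on the log2 scale and that of all genes 0.03. With inactivated replicate 3 left out 8 genes were higher, and the count was 4 without inactivated replicate 1, 2 or 4 or control replicate 2 or 3.

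**Figure D1:**
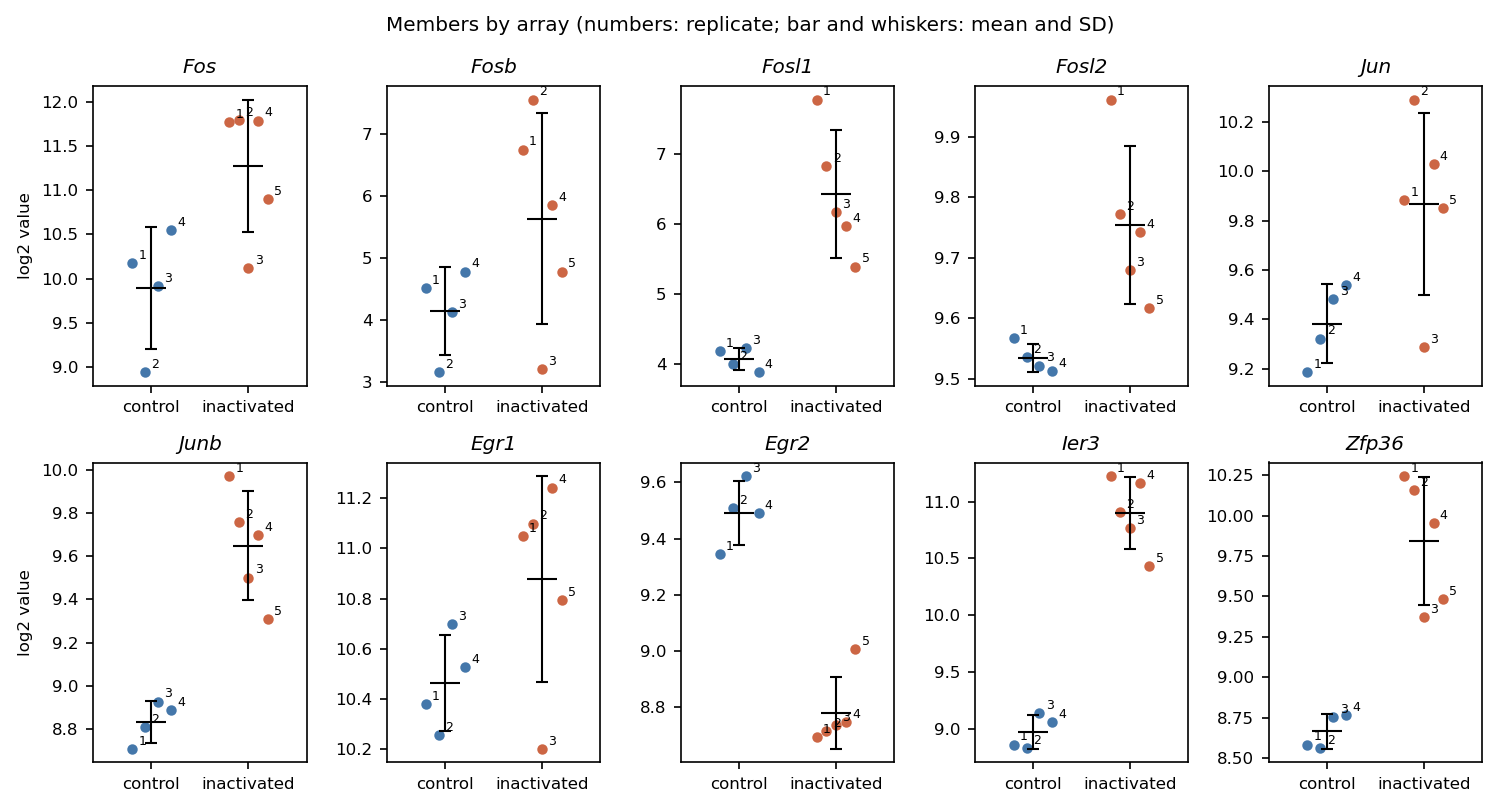
Log2 value (vertical axes, a different range in each panel) of the 10 genes on the 4 control and 5 inactivated arrays; numbers give the replicate, the horizontal bar the mean and the whiskers the SD. Ier3, Zfp36, Junb, Fosl1 and Fosl2 are higher on every inactivated array and Egr2 is lower, while in Fos, Fosb, Jun and Egr1 inactivated replicate 3 lies among or below the controls.

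Of the 9 arrays, inactivated replicate 5 lay nearest the controls on the first principal component (25.3, against 44.9 to 55.8 on the other inactivated arrays and -63.0 to -48.6 on the controls; 63.4% of the variance). Array medians were 4.342 to 4.422. Of the keratinocyte markers, Krt5, Krt14, Krt1, Krt10 and 6 others averaged 11.51 to 11.76 on the inactivated and 11.73 to 11.84 on the control arrays (1 higher, 2 lower). Markers of other cells moved with the groups: 8 of 9 measured fibroblast markers were lower (list mean 8.53 to 9.33 against 9.56 to 10.10), as were 5 of 7 T cell markers (4.88 to 5.26 against 5.81 to 6.14), 5 of 10 macrophage markers (7.69 to 8.37 against 8.35 to 8.69) and 5 of 8 Langerhans cell markers (9.05 to 9.63 against 9.53 to 9.67). In the last 2 lists 1 marker each was higher. For comparison, 15.5% of all genes were higher and 18.9% lower. Endothelial (1 of 10 higher, 1 lower) and mast cell markers (2 of 7 higher) mostly did not pass. Of the neutrophil markers 3 of 8 were higher and 1 lower (6.32 to 6.49 against 5.37 to 5.54), and the 3 include S100a8 and S100a9, which keratinocytes also make, while Mpo was lower. On arrays no marker reads 0. 1 T cell marker and 3 neutrophil markers lay below the median of every array. In bulk tissue fewer cells of a type and less RNA per cell cannot be told apart, and the part of these shifts in the values below was not tested.

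Ier3, the stress and survival gene, had the widest gap between the groups of the 10 genes. It read 11.22, 10.91, 10.77, 11.16 and 10.43 on inactivated replicates 1 to 5 and 8.86, 8.83, 9.13 and 9.05 on control replicates 1 to 4. The lowest inactivated array thus lay 1.30 above the highest control. The difference of 1.93 ± 0.15 (SE) is a 3.81-fold rise (adjusted p = 1.47e-05, limma), and it lay between 1.85 and 2.05 under the 18 alternatives tried.

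Zfp36, the mRNA decay factor, read 10.24, 10.16, 9.37, 9.96 and 9.48 on the inactivated arrays and 8.58, 8.56, 8.75 and 8.77 on the controls. Every inactivated array was above every control, by at least 0.61. It rose 2.26-fold (1.18 ± 0.18, adjusted p = 0.000724, limma). Within the inactivated group, replicates 3 and 5 were the lowest arrays for Zfp36.

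Among the Jun genes, Junb, often described as a brake on Jun in keratinocytes, read 9.97, 9.76, 9.50, 9.70 and 9.31 on the inactivated arrays and 8.71, 8.81, 8.93 and 8.89 on the controls. The groups did not overlap, and Junb rose 1.76-fold (0.82 ± 0.12, adjusted p = 0.00075, limma). Jun itself read 9.88, 10.29, 9.29, 10.03 and 9.85 against 9.19, 9.32, 9.48 and 9.54. Inactivated replicate 3 lay below 3 of the 4 controls, while the other 4 inactivated arrays lay above all of them. The Jun difference of 0.49 ± 0.17 did not pass (adjusted p = 0.0568, limma) and was 0.63 (adjusted p = 0.00373) without inactivated replicate 3. It also passed with array medians subtracted, dim probe sets left out, an intensity trend, array weights or sex as a covariate. The dimmer Jun probe set gave 0.20 ± 0.16 (adjusted p = 0.366, limma). The change of Jun was smaller than that of Junb by 0.33 ± 0.18, a difference that did not pass (two-sided exact permutation p = 0.143, adjusted p = 0.191 over 4 pairs of related genes).

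Fosl1, a Fos relative without a transactivation domain, read 7.77, 6.82, 6.17, 5.96 and 5.39 on the inactivated arrays and 4.18, 4.00, 4.23 and 3.88 on the controls. Controls lay close together and the inactivated arrays far apart, replicate 1 being the highest and replicate 5 the lowest, with a gap of 1.16 between the groups. Fosl1 rose 5.09-fold on this probe set (2.35 ± 0.38, adjusted p = 0.00124, limma). Its 4 control values lay below the medians of their arrays, where signal above background was not tested, so the size of the rise is less sure than its direction. Its second probe set ranked the inactivated arrays in the same order, from 5.59 down to 3.84, against 2.71 to 3.08 on the controls, and rose by 1.57 ± 0.29.

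The 2 probe sets of Fosl2, the other Fra gene, disagreed on size. The brighter one read 9.96, 9.77, 9.68, 9.74 and 9.62 on the inactivated arrays and 9.57, 9.54, 9.52 and 9.51 on the controls. The groups were separated by only 0.05, and the difference of 0.22 ± 0.08 did not pass (adjusted p = 0.0569, limma). It passed under 7 of 18 alternatives, among them without inactivated replicate 5 (0.25, adjusted p = 0.0342) and as the mean of both probe sets (0.53, adjusted p = 0.000514). The dimmer one read 6.34, 6.21, 6.30, 6.16 and 6.10 against 5.48, 5.47, 5.53 and 5.09, and rose by 0.83 ± 0.10 (adjusted p = 0.000196, limma). Fosl1 changed by 2.13 ± 0.40 more than Fosl2 on the brighter probe sets, and by 0.74 to 2.13 over all pairings of their probe sets (two-sided exact permutation p = 0.00794, the smallest that 126 splits can give; adjusted p = 0.0318 over the 4 pairs).

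Fos, the founding member, was bright in both groups and varied widely within each. It read 11.77, 11.79, 10.12, 11.79 and 10.90 on the inactivated arrays and 10.17, 8.94, 9.92 and 10.55 on the controls. The groups overlapped, because inactivated replicate 3 lay below control replicates 1 and 4. Fos rose 2.60-fold (1.38 ± 0.40, adjusted p = 0.0253, limma; two-sided exact permutation p = 0.0397). That call was lost with inactivated replicate 1, 2 or 4 or control replicate 2 or 3 left out (adjusted p = 0.0517 to 0.0742), and with an intensity trend (0.0505).

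Fosb had the widest spread of all members. It read 6.74, 7.55, 3.22, 5.85 and 4.78 on the inactivated arrays and 4.52, 3.16, 4.13 and 4.78 on the controls. Replicates 1, 2 and 4 of the inactivated group lay above every control, and replicate 3 lay near the lowest control, both below the array medians. The difference of 1.48 ± 0.75 did not pass (adjusted p = 0.166, limma), and was 2.08 (adjusted p = 0.0205) without inactivated replicate 3. Fos and Fosb did not differ detectably in their change (-0.10 ± 0.52, two-sided exact permutation p = 0.833, adjusted p = 0.833 over the 4 pairs), and with that error a sizeable difference could have gone undetected.

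The zinc finger genes Egr1 and Egr2 differed in their change, although only Egr2 passed by itself. Egr2 read 8.69, 8.72, 8.74, 8.75 and 9.01 on the inactivated arrays and 9.35, 9.51, 9.62 and 9.49 on the controls. All inactivated arrays were lower, with replicate 5 the nearest to the controls, and the second probe set also separated the groups, with 8.05 to 8.48 against 8.71 to 8.99. Egr2 fell by 0.71 ± 0.09 (1.64-fold lower, adjusted p = 0.000203, limma), and by 0.60 ± 0.10 on the second probe set. Egr1, whose protein binds the same GC-rich motif, read 11.05, 11.10, 10.20, 11.24 and 10.79 against 10.38, 10.26, 10.70 and 10.53. All inactivated arrays but replicate 3 exceeded all controls, and replicate 3 was the lowest of the 9. The Egr1 difference was 0.41 ± 0.19 (adjusted p = 0.133, limma), and 0.58 (adjusted p = 0.00668) without that array. The change of Egr1 exceeded that of Egr2 by 1.12 ± 0.24 (two-sided exact permutation p = 0.0159, adjusted p = 0.0318 over the 4 pairs), and by 1.02 on the second Egr2 probe set.

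**Figure D2:**
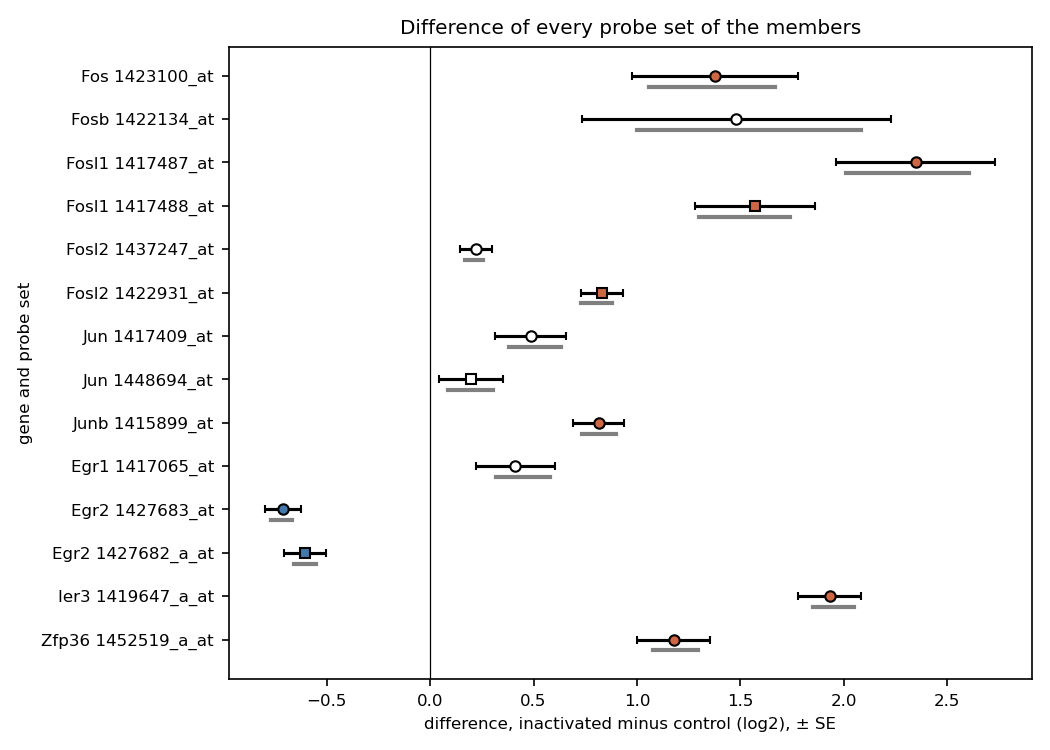
Difference between the groups (horizontal axis, log2) with its SE for all 14 probe sets, circles for the probe set used for a gene and squares for a further one; filled symbols passed, orange for higher and blue for lower, and open ones did not. Grey bars give the range when each array in turn was left out, which is widest for Fosb (1.00 to 2.08) and Fos (1.06 to 1.66).

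The members differed in how much mice of one group varied. The within-group SD was 1.36 for Fosb, 0.72 for Fos and 0.70 for Fosl1, larger than in 99.9%, 99.3% and 99.2% of the 18193 genes. It was 0.10 for Fosl2 and 0.12 for Egr2, larger than in 19.2% and 33.3%. For Egr1, Zfp36, Jun, Ier3 and Junb it was larger than in 92.6%, 90.5%, 89.6%, 85.0% and 72.1%.

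The arrays lowest in Fos were also the lowest of their groups in Fosb and Egr1, but not in Fosl1 or Fosl2. Inactivated replicate 3 was the lowest of its group in 5 of the 10 genes (Fos, Fosb, Egr1, Jun and Zfp36), with deviations from its group mean of -1.15 in Fos and -2.41 in Fosb, and control replicate 2 was the lowest control in 5 (Fos, Fosb, Egr1, Ier3 and Zfp36), with -0.95 in Fos and -0.99 in Fosb. Of all 18193 genes, inactivated replicate 3 was the lowest of its group in 19.8% and control replicate 2 in 25.6%. Inactivated replicate 5 was the lowest in Fosl1, Fosl2, Junb and Ier3 and the highest in Egr2, which places it nearest the controls in those 5 genes. Inactivated replicate 1 was the highest in 5 genes (Fosl1, Fosl2, Junb, Ier3 and Zfp36).

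**Figure D3:**
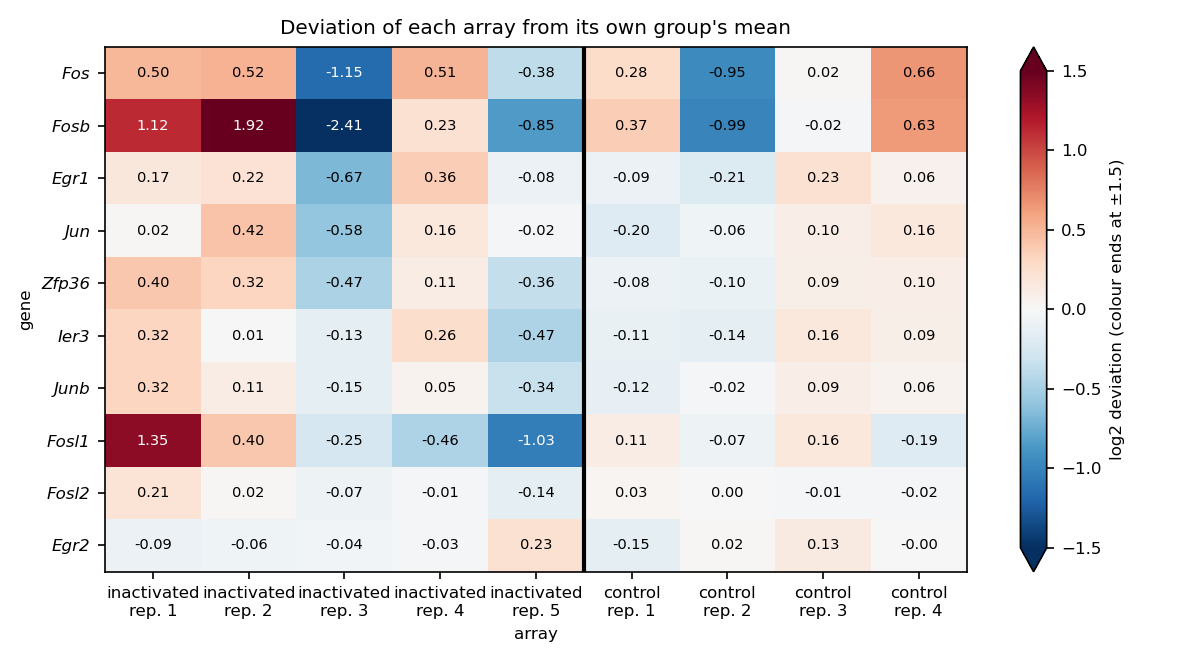
Deviation of each array (columns) from the mean of its own group, in log2 units, for the 10 genes (rows); colour runs from blue, below the mean, to red, above it, and ends at 1.5 either way. Inactivated replicate 3 and control replicate 2 are blue in the upper rows (Fos -1.15 and -0.95, Fosb -2.41 and -0.99), and inactivated replicate 5 is blue in Fosl1 (-1.03).

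Heat shock genes, which respond to tissue handling as well as to stress in the animal, were read beside these values. Inactivated replicate 3 was the lowest of its group in 8 of 12 and control replicate 2 in 8 of 12. In the comparison of the groups 4 of the 12 were higher, 4 lower and 4 did not pass (median -0.07). The shares over all genes were 15.5% higher and 18.9% lower. Bag3, a co-chaperone, rose by 0.80 ± 0.08 and Hsp90aa1, Hspd1 and Hspe1 by 0.49, 0.51 and 0.29, while Hspb1, Dnajb1, Dnaja1 and Hspa1a fell by 0.49, 0.46, 0.37 and 0.50. The Hspa1a call was lost without any 1 of the controls, that of Dnaja1 without control replicate 3, and that of Hspe1 without any 1 control or inactivated replicate 1, 2 or 4, so that without control replicate 3 only 2 were lower. A further Dnajb1 probe set differed by 0.01. The part of handling in the member values was not tested.

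Among 29 other immediate early genes 12 rose, only Klf2 fell and 16 showed no call, with a median of 0.38. Beside them, 15.5% of all genes were higher and 18.9% lower. Phlda1, a pleckstrin-homology-like protein induced by growth factor signals, read 11.07, 10.73, 9.44, 10.56 and 9.91 on the inactivated arrays and 7.54, 6.83, 7.47 and 7.57 on the controls. The groups lay far apart, and it rose 7.94-fold (2.99 ± 0.31, adjusted p = 6.82e-05, limma). The polo-like kinases Plk2 and Plk3 rose by 1.41 ± 0.15 and 0.79 ± 0.10, and Ier5 by 0.70 ± 0.11. As means of all their probe sets Plk2 and Ier5 differed by 0.88 and 0.39 and still passed. The Krüppel-like factor Klf2 fell by 0.67 ± 0.19, with overlap of the groups, and its call was lost without control replicate 4 (adjusted p = 0.0588); without inactivated replicate 1 or 3 the count of lower genes was 2. In this list too inactivated replicate 3 was most often the lowest of its group (13 of 29).

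Some further genes of that list were singled out after their values were seen. Arc, an immediate early gene best known from neurons, read 8.01, 7.66, 5.17, 7.10 and 6.27 on the inactivated arrays and 4.17, 4.55, 4.52 and 4.68 on the controls. It rose 5.13-fold (2.36 ± 0.48, adjusted p = 0.00439, limma) with no overlap of the groups. The Arc control values lay near the medians of their arrays (4.376 to 4.422), with control replicate 1 below. Signal above background was not tested there, so the size of the Arc rise is less sure than its direction. Ptgs2, the inducible cyclooxygenase, read 6.31, 6.27, 4.42, 5.52 and 3.79 against 2.70, 2.57, 3.07 and 2.40, and rose by 2.58 ± 0.48. Its controls lay below the array medians, and its other probe set rose by 1.23 (adjusted p = 0.0193, limma). As in Fos, replicates 3 and 5 of the inactivated group were the lowest in both genes. The nuclear receptor Nr4a1 rose by 0.99 ± 0.31 (adjusted p = 0.0373, limma) with overlap, a call lost when inactivated replicate 1, 2 or 4 or control replicate 1, 2 or 3 was left out. The MAP kinase phosphatase Dusp1, which read 11.24, 11.23, 10.05, 11.27 and 10.28 against 10.22, 9.72, 10.55 and 10.94, differed by 0.45 ± 0.31 and did not pass (adjusted p = 0.307, limma).

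Other proteins that pair with Fos or Jun, or that belong to the same zipper superfamily, had 1 of 14 higher, 4 lower and 9 not passing (median -0.21). Over all genes the shares were 15.5% higher and 18.9% lower. Maff, a small Maf protein, rose by 1.06 ± 0.15 (adjusted p = 0.000636, limma), from 6.95 ± 0.04 (SD, n = 4) to 8.01 ± 0.35 (SD, n = 5). Maf, Mafg, Atf2 and Bach2 fell by 0.51 ± 0.09, 0.38 ± 0.08, 0.37 ± 0.08 and 0.52 ± 0.13. Of 4 further Atf2 probe sets 2 also fell (-0.31 and -0.47) and 2 did not pass (0.38 and -0.05), and of 2 for Bach2 1 fell (-0.72) and 1 did not pass (0.08). The Bach2 call was lost with a replicate block. The third Jun gene, Jund, singled out after its value was seen, differed by -0.24 and did not pass.

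Of the serum response factor group, 1 of 6 genes rose, 3 fell and no call was made for 2, beside 15.5% of all genes higher and 18.9% lower. The ternary complex factor Elk3 rose by 0.91 ± 0.14 (adjusted p = 0.000683, limma). Its relative Elk4 and the co-activators Mrtfb and Mrtfa fell by 0.32, 0.38 and 0.32. Other probe sets of Elk4 differed by between -0.05 and 0.20 and those of Mrtfb 0.32 and -0.07, none of them passing, and Mrtfa lost its call with quantile normalisation, a replicate block, or without control replicate 3 or 4.

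The kinases that lie upstream had 6 of 13 measured genes higher, 1 lower and 6 not passing (median 0.08). Among all genes 15.5% were higher and 18.9% lower. Map3k1, a kinase that feeds the JNK branch, fell by 1.51 ± 0.14 (2.84-fold lower, adjusted p = 4.21e-05, limma), and all of its inactivated arrays lay below the controls. Map2k1, which activates ERK, rose by 0.78 ± 0.11, and Mapkapk2, Mapk14 (p38 alpha) and Map2k3 of the p38 branch rose by 0.36, 0.32 and 0.27. Map2k4 (0.25) and Mapk11 (0.28), singled out after their values were seen, were also called higher. Map2k6 (-0.47), Mapk13 (0.08), Mapk8 (-0.25) and Mapk9 (-0.16), singled out likewise, did not pass. No branch was tested as a whole. With a replicate block 3 genes of this list were higher, and Mapk14 and Map2k3 did not pass. The count was also 3 without control replicate 4, and 2 genes were lower without control replicate 1. As the mean of its 2 probe sets Map3k1 differed by -0.96 and passed. Of the Egr co-repressors, Nab2 fell by 0.35 ± 0.10 and Nab1 did not pass; the Nab2 call was lost with quantile normalisation (adjusted p = 0.0843), array medians subtracted, sex as a covariate, a replicate block, or without inactivated replicate 4 or control replicate 1, 3 or 4.

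Genes of AU-rich mRNA decay mostly did not pass. Among 13 such genes there was 1 rise, 2 fell and no call was made for 10 (median -0.11), beside 15.5% of all genes higher and 18.9% lower. The Zfp36 paralog Zfp36l2 fell by 0.51 ± 0.12 and the RNA-binding protein Tia1 by 0.54 ± 0.09, while further Zfp36l2 probe sets differed by -0.01 and -0.27 and did not pass. Hnrnpd (AUF1) rose by 0.25 ± 0.08 on its brightest probe set, but fell by 0.48 and 0.26 on 2 others, and the mean of its probe sets differed by -0.16. The Hnrnpd call was also lost without inactivated replicate 2, 3 or 5 or any 1 of the controls, which left no decay factor higher. As means of all their probe sets 5 genes of this list were lower. The count of higher genes was 2 with array medians subtracted, dim probe sets left out or array weights.

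Of 15 messenger RNAs known to be bound by Zfp36, 11 rose, none fell and 4 had no call (median 0.80). Of all genes 15.5% were higher and 18.9% lower. The count of 11 includes Ier3. The cytokine Il1a rose 3.42-fold (1.77 ± 0.16, adjusted p = 2.87e-05, limma), Il1b by 1.37 ± 0.22, the angiogenic factor Vegfa by 0.86 ± 0.13 and Plk3 as above. Several of these transcripts were dim, with 4 of 15 below the median on every array. Leaving out dim probe sets took genes such as Ptgs2 out of the test, and 7 of those left were higher.

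Among textbook targets of AP-1 in skin 12 of 23 rose, 2 fell and 9 had no call (median 0.74), beside 15.5% of all genes higher and 18.9% lower. S100a9, S100a8, Krt16 and Sprr1b, products of stressed keratinocytes, rose by 4.54 ± 0.15, 3.40 ± 0.15, 3.43 ± 0.17 and 3.50 ± 0.19. On the inactivated arrays these 4 genes read 12.76 to 13.41, near the highest value of any probe set (13.473 to 13.531), where saturation was not tested and a rise can be understated. The matrix metalloproteinases Mmp9 and Mmp13 fell by 1.90 ± 0.10 and 0.86 ± 0.28, and the Mmp13 call, with overlap of the groups, was lost without inactivated replicate 2, 3, 4 or 5 or control replicate 2, 3 or 4. Hbegf, an EGF receptor ligand singled out after its values were seen, read 10.33, 9.10, 8.28, 8.97 and 7.78 on the inactivated arrays and 6.18, 6.07, 6.16 and 6.35 on the controls. It rose 6.50-fold (2.70 ± 0.40, adjusted p = 0.000724, limma). As in Fosl1, inactivated replicate 1 was the highest and replicate 5 the lowest.

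**Figure D4:**
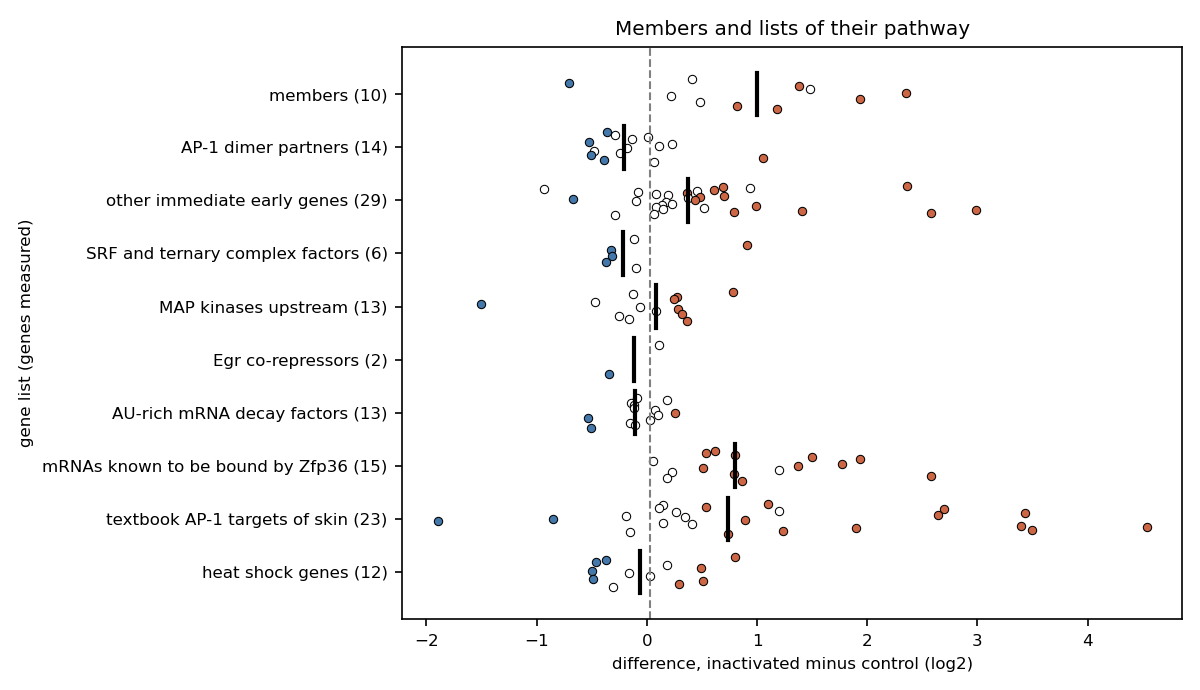
Difference between the groups (horizontal axis, log2) of each measured gene in the 10 members and 9 related lists; orange symbols were higher, blue ones lower and open ones did not pass, black bars are list medians and the dashed line is the median of all genes (0.03). The members, the mRNAs bound by Zfp36 and the AP-1 targets have medians of 1.00, 0.80 and 0.74, and the other 7 lists between -0.22 and 0.38.

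Profiles over the 9 arrays, scaled to mean 0 and SD 1, were compared with those of 11377 other genes above the median level. Nearest to Fos, by root mean square difference, were Bend4 (0.24), Lcor (0.26) and Dusp6 (0.27), a phosphatase that acts on ERK. Dusp6 read 9.88, 9.44, 8.85, 9.80 and 9.25 on the inactivated arrays and 8.59, 8.27, 8.64 and 8.89 on the controls, lowest within each group on the same arrays as Fos. Nearest to Ier3 were Slc9a3r1 (0.08), a scaffold of membrane proteins, S100a16 (0.11), a calcium-binding protein, and Gch1 (0.11), the first enzyme of tetrahydrobiopterin synthesis. Gch1, whose other probe set differed by 0.23 and did not pass, read 7.89, 7.58, 7.66, 7.82 and 7.22 against 5.98, 6.05, 6.25 and 5.93. Lcor did not pass in the comparison of the groups (0.25 ± 0.12), and the call of Bend4 (0.37 ± 0.12) was lost without inactivated replicate 1, 2 or 4 or control replicate 1, 2 or 3. These likenesses are descriptions over 9 arrays and take in the difference between the groups.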

How the data were processed

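The 9 arrays come as a single table of log2 values deposited by the authors, covering 45037 probe sets. Per the submitters' processing notes affy was used, with no version; how background was corrected and arrays normalised is not given in the sources consulted. That the values are log2 was read from their range (highest 13.473 to 13.531). Values near background and near the top can be compressed. Platform annotation names 34945 probe sets by 1 gene, and the brightest probe set on average over the 9 arrays stands for a gene. Gene positions and promoter windows are RefSeq's for GRCm38.p6.

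Each probe set was tested with limma 3.58.1 in R 4.3.3 (lmFit, eBayes, two-sided, no covariate, 7 residual degrees of freedom), with Benjamini-Hochberg adjustment over all probe sets and a threshold of 0.05. Differences are inactivated minus control ± SE. Related genes were compared by exact permutation over 126 splits of the per-array difference between them. The fit was tested on simulated data with 200 probe sets changed per run, far fewer than passed in the real data. There 42% of log2 changes of 0.5 and 91.2% of changes of 1 were called. These shares are averages over probe sets drawn from the whole array. A gene without a call can therefore have changed by about 0.5. For members with a wide spread, such as Fosb (1.48 ± 0.75, no call), the change missed can be larger. The labels call the mice biological replicates; the number of arrays limits the precision. Genes named are the members, up to 4 of each list in each direction with the lowest adjusted p, and the 3 profiles nearest to Fos and to Ier3; others are said to be singled out. Members and lists were chosen with earlier results of these data known. Sex, used only as a covariate, came from the levels of Xist and of Y-linked genes (Xist above in 3 inactivated arrays and 1 control, below in 2 and 3). Symbols of 4 listed genes were updated through RefSeq synonyms, and 11 listed genes or markers were not analysed here. No column was left out.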

Additional observations from a re-analysis of the deposited data

Results flagged for a closer look

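In 2 of 28 groups of arrays, 1 for each group and member probe set, a single array stood apart from the others by Dixon's criterion, which chance meets in about 1 of 20 groups. On the dimmer Fosl2 probe set control replicate 4 read 5.09, below the 5.47 to 5.53 of the other controls; without it the difference was 0.73. On the brighter Egr2 probe set inactivated replicate 5 read 9.01, above the 8.69 to 8.75 of the other inactivated arrays and nearest to the controls; without it Egr2 fell by 0.77.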

How the results depend on the processing

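The calls of Fosl1, Junb, Egr2, Ier3 and Zfp36 held under all 18 alternatives for each, and those of Fos, Fosb, Fosl2, Jun and Egr1 did not. The count of members that were higher was 8 with array weights and ran from 4 to 8 when single arrays were left out; the count of lower members was 1 throughout. Of the 121 other listed genes 44 were higher and 18 lower, and 29 and 11 at a threshold of 0.01. Of all 18193 genes 2816 were higher and 3434 lower, and 1526 and 2179 at 0.01. Deviations of same-numbered arrays from their group means correlated at -0.268, 0.00679, -0.0939 and 0.078. The sample titles do not say whether the numbers pair mice, and these correlations cannot settle it. A replicate block, which takes inactivated replicate 5 out of the difference because no control shares its number, left 5 members higher and 1 lower and 39 listed genes higher and 14 lower; it changed no member call.

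With single arrays left out, Fosl1 minus Fosl2 ran from 1.84 to 2.35 and Egr1 minus Egr2 from 1.02 to 1.28. Their adjusted exact permutation p ran from 0.0571 to 0.0714, against 0.0318 with all 9 arrays, and neither pair passed. With 8 arrays there are fewer splits, which raises the smallest p that can be reached. These p-values therefore cannot tell whether either result rests on a single array. Fos minus Fosb ran from -0.42 to 0.25, turning sign without inactivated replicate 1 (0.05) or 2 (0.25). Jun minus Junb ran from -0.41 to -0.22, and was -0.47 (adjusted exact permutation p = 0.0423) with probe sets averaged per gene, an alternative chosen after seeing the data. The Hnrnpd difference was -0.16 with that mean. Except for probe sets that disagree, the causes of these shifts were not tested. On arrays, signal near background limits dim genes, and 9 arrays limit the precision.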
